A study of Mus musculus with 4 samples.

Results

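The genes described here are 32 genes of glycolysis and of the response to low oxygen, measured by RNA-seq in mouse bone marrow-derived mesenchymal stem cells (mBMSCs). They were listed by symbol with earlier results of these data known. Each is followed through the rows of the deposited expression table that carry exactly that symbol. Of the 32 genes, 31 had a row of their own among 24346 rows. Eno1, which encodes the main enolase, had none and is given only in a joint row with the near-identical gene Eno1b. The cells were primary cultures from the femoral marrow of wild-type mice aged 3 months (C57BL/6 in the labels, C57BL/6J in the study's methods), kept in serum-containing DMEM. There were 2 samples transfected with scrambled siRNA (siScr) and 2 transfected with siRNA against ZBP1 (siZBP1), all transfected with Lipofectamine RNAiMAX and collected after 72 h. No source used here says whether the samples of a group came from separate animals or which of the study's siRNAs against ZBP1 was used, so that p-values measure only the spread between these samples. Values are FPKM, fragment numbers scaled by transcript length and by the mapped reads of the sample, so that levels can be compared between genes.

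Glycolysis turns glucose into pyruvate in the cytosol through a fixed series of enzymes, most of which exist as several isoenzymes from different genes. Pyruvate is then either reduced to lactate and exported, or carried into mitochondria, where pyruvate dehydrogenase (PDH) commits it to oxidation unless PDH kinases switch that enzyme off. The hypoxia-inducible factors (HIFs) consist of an oxygen-labile α subunit and the stable partner ARNT, and they bind a short DNA core near many glycolytic genes. Bone marrow stromal cells and osteoblasts are known for using glycolysis heavily, and macrophages, which also adhere in marrow cultures, do so when activated.

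Zbp1 transcripts, the target of the siRNA, were at 86.0 and 62.0 FPKM in the siScr samples and at 11.5 and 11.6 FPKM in the siZBP1 samples. The relative depth of each library was read from the most frequent ratio of siZBP1 replicate 1 to that library, among values under 0.06 FPKM. It ranged from 1.00 in siZBP1 replicate 1, the reference, to 1.87 in siScr replicate 2, and read numbers are not given in the sources used here. Col1a1, the main collagen of stromal cells and bone, averaged 2793 FPKM in siScr and 1160 FPKM in siZBP1 samples, and macrophage markers were abundant as well. All 16 macrophage markers listed were tested, of which 11 were higher and 0 lower in siZBP1 cells (limma, adjusted p under 0.05), with the lysozyme gene Lyz2 at 2814 and 3647 FPKM in siScr and at 5871 and 5402 FPKM in siZBP1 samples. At an unadjusted p under 0.05, the same count of lower macrophage markers was also 0. Their summed level was 9735 and 10734 FPKM in siScr and 15444 and 14693 FPKM in siZBP1 samples. Of 15 mesenchymal markers tested, 6 were lower and 1 was higher, and the list summed to 6025 and 4999 FPKM in siScr and to 3584 and 3619 FPKM in siZBP1 samples. Of 7 osteogenic genes tested, 6 were lower and 1 was higher, while the list summed to 4993 and 5478 FPKM in siScr and to 5843 and 5698 FPKM in siZBP1 samples. The higher osteogenic sum thus came from the 1 gene that was higher. Col1a1 is on both the mesenchymal and the osteogenic list, so that their sums are not independent. Its level was 3066 and 2520 FPKM in siScr and 1128 and 1191 FPKM in siZBP1 samples. Of 4 adipocyte genes tested, Lpl was higher (218 and 234 against 261 and 277 FPKM) and Pparg lower (22.8 and 19.0 against 13.7 FPKM in each siZBP1 sample), and the list summed to 390 and 405 FPKM in siScr and to 441 and 464 FPKM in siZBP1 samples. Of 2 endothelial genes tested none passed the threshold. Beside these lists, 13.5% of all 11959 genes tested were higher and 14.8% lower past the same threshold. Of the adipocyte list, Plin1, Cidec and Lep were listed at 0 in all samples, as the erythroid genes Hbb-bs and Slc4a1 were. In bulk RNA, a larger share of a cell type and more RNA per cell cannot be told apart, and the part of the macrophage and mesenchymal signals in the changes given below was not tested.

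Most of the genes had somewhat higher levels in siZBP1 cells, a few had lower ones, and the largest change was the fall of Pdk4. With limma, a linear model on log2(FPKM + 1) that shares variance between genes, 12 of the 31 genes were higher and 4 lower past the threshold (adjusted p under 0.05). That is 38.7% and 12.9% of the genes, beside 13.5% of all 11959 genes tested that were higher and 14.8% that were lower. Since the genes were chosen with earlier results known, the shares in this paragraph are descriptions, and the genes were not tested as a set. All 31 genes passed the filter of a mean of at least 1 FPKM. Their median log2 fold change was 0.19, beside 0.00 over all genes tested, and 24 of them (77.4%) had a positive sign, beside 50.8% of all genes. The FPKM of the siZBP1 samples lay above those of both siScr samples for 21 genes (67.7%) and below them for 6 (19.4%), beside 34.7% and 33.7% of all genes. By the ratio of the group means, 3 genes were higher by over 1.5-fold (Aldoc, Pfkfb3 and Bnip3) and 2 were lower (Pdk4 and Epas1), which is 9.68% and 6.45% of the genes, beside 4.51% and 9.19% of all genes. Together the 31 genes summed to 3959 and 4036 FPKM in the siScr samples and to 4840 and 4734 FPKM in the siZBP1 samples.

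The calls depended on which sample was left out, for all genes tested as well as for these, and the counts are given further below. Each such fit leaves 1 sample in a group, so that only the size of the changes is given here. Half-way through the 31 ranked log2 fold changes lay 0.18 without siZBP1 replicate 1 and 0.21 without replicate 2. The same middle value was 0.17 without siScr replicate 1, 0.22 without replicate 2 and 0.19 with all 4 samples. Pdk4 stayed between -2.39 and -2.22 in the fits with 1 sample left out. The sign of the change was kept by 30 or 31 of the 31 genes in each of these fits. For any 1 gene, permuting 2 against 2 samples exactly cannot give a two-sided p below 0.333.

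**Figure D1:**
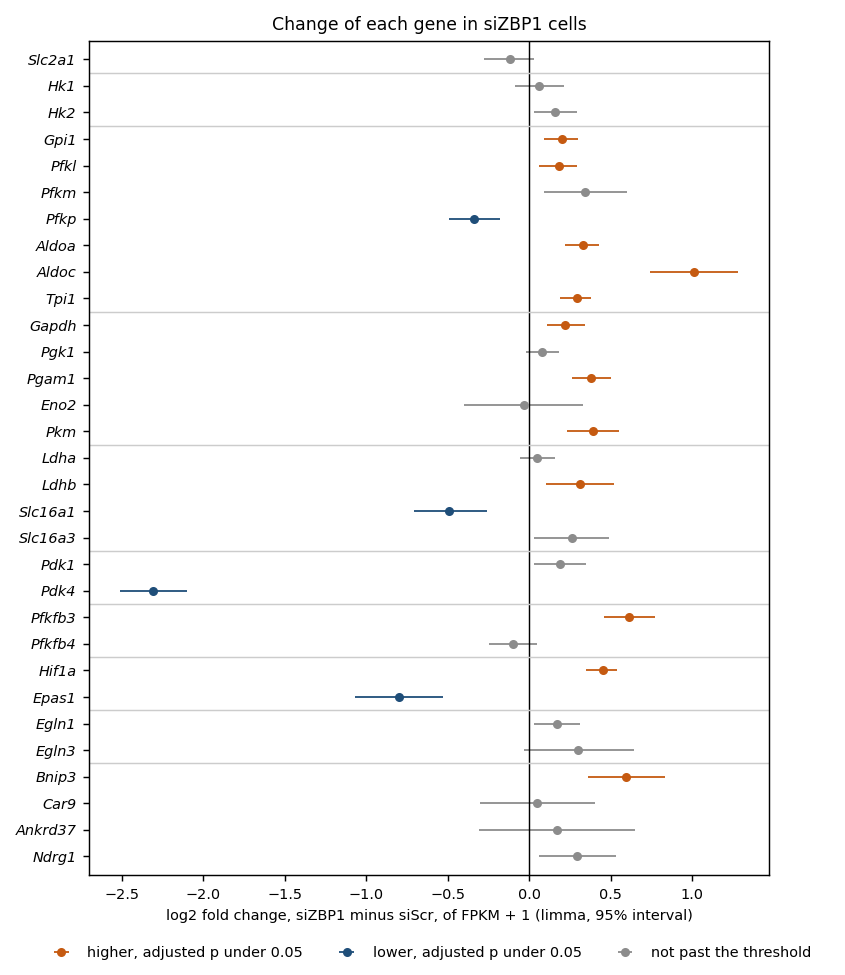
Log2 fold change of FPKM + 1 in siZBP1 minus siScr cells (horizontal axis) for the 31 genes with a row of their own, with the 95% interval of limma from 2 samples per group, grouped by role and coloured by call at an adjusted p under 0.05. The 12 higher genes lie between 0.18 and 1.01, and Pdk4 stands apart at -2.31.

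For the genes that changed by over 1.5-fold and have a promoter in the RefSeq-based table (build GRCm38.p6, from 250 bases before to 50 after each start site), stretches with a core that HIFs are known to bind are shown, to let the changed genes be compared at sequence level. The motifs searched were ACGTG and GCGTG on both strands. Shown for each gene is the upstream core nearest to its first listed start site, with a second, more distal one for Bnip3 that overlaps a core on the other strand. The RefSeq start sites differ from the GENCODE gene bounds, and the stretches of Aldoc and Pfkfb3 lie inside those bounds, downstream of the GENCODE start. Each stretch is written 5′ to 3′ on the gene's strand with the core in capitals.
Pdk4, chr6:5496332-5496361, minus strand: gttgtggagaggGCGTGgaggtagataaaa
Aldoc, chr11:78323011-78323040, plus strand: ccacctctgaggGCGTGgccttaccctaga
Pfkfb3, chr2:11553972-11554001, minus strand: ctccgcgccgtgACGTGccaagctgtgacc
Bnip3, chr7:138909524-138909553, minus strand: ggctccgccgccGCGTGcgtcccgccccgc
Bnip3, chr7:138909596-138909625, minus strand: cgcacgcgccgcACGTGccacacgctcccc
The cores shown for Pdk4, which fell, and for Aldoc, which rose, were both GCGTG. Epas1 had no entry in the table. A core was present in 32 of 40 promoters of the genes (80.0%), in 61.9% of the 11492 promoters of genes tested and in 43.8% of all 32851 promoters. It was found in 13 of 17 promoters of the genes that were higher, in 3 of 3 of those that were lower and in 16 of 20 of the others, and several genes contribute more than 1 start site. A match of 5 bases is a description of the sequence and not evidence of binding.

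At the entry of the pathway, little differed between the groups. Slc2a1, which encodes the basal glucose transporter, was at 26.9 and 26.6 FPKM in siScr and at 23.4 and 25.6 FPKM in siZBP1 samples. Both siZBP1 values were lower, but the log2 fold change of -0.12 did not pass the test (95% interval -0.28 to 0.03, adjusted p = 0.195). Of the hexokinases, which trap glucose as glucose phosphate, Hk1 was at 36.4 and 35.1 FPKM and at 38.8 and 35.9 FPKM, with overlapping groups and a log2 fold change of 0.06 (95% interval -0.09 to 0.21). Hk2, the more inducible form, was at 16.0 and 15.9 FPKM in siScr and at 18.1 and 17.8 FPKM in siZBP1 samples, a log2 difference of 0.16 short of the threshold (adjusted p = 0.0766). Hk3, the form best known from myeloid cells and not on the list, made up 45.0% of the summed hexokinase FPKM in each siScr sample and 41.6% and 42.8% in the siZBP1 samples. It did not pass the test (adjusted p = 0.305), at 42.8, 41.8, 40.5 and 40.2 FPKM.

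In the upper part of the pathway between glucose phosphate and the triose phosphates, 5 of 7 genes were higher and 1 was lower. Over all genes tested, 13.5% were higher and 14.8% lower, and whether so few genes departed from those shares was not tested. Gpi1, the isomerase that makes fructose phosphate, was at 127 and 131 FPKM in siScr and at 150 and 147 FPKM in siZBP1 samples (1.15-fold, log2 fold change 0.20, adjusted p = 0.0269). Tpi1, which interconverts the triose phosphates, was at 201 and 200 FPKM in siScr and at 244 and 245 FPKM in siZBP1 samples (1.22-fold, log2 fold change 0.29, standard error 0.036, adjusted p = 0.00955). For Tpi1 the replicates of a group differed far less than the groups did.

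The aldolases, which split fructose bisphosphate, rose in both of their forms measured here. Aldoa, the form of muscle and most other tissues, was at 681 and 677 FPKM in siScr and at 857 and 846 FPKM in siZBP1 samples, a rise of 25.4% (log2 fold change 0.33, standard error 0.040, adjusted p = 0.00944). Aldoc, the form best known from brain, was at 6.78 and 8.30 FPKM in siScr and at 16.2 and 16.1 FPKM in siZBP1 samples. Its rise of 2.14-fold was the largest among the 31 genes on the log2 scale (log2 fold change 1.01, standard error 0.102, adjusted p = 0.00638). In GRCm38, Aldoc spans 78322968 to 78327781 of chromosome 11. Even so, Aldoc supplied 0.987% and 1.21% of the FPKM of both aldolases in siScr samples and 1.86% in each siZBP1 sample, so that the summed level of 688 and 686 FPKM against 873 and 863 FPKM was almost entirely that of Aldoa.

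The phosphofructokinases, which carry out the committed step of glycolysis, did not move together. Pfkl, the liver form, was at 31.4 and 31.5 FPKM in siScr and at 36.1 and 35.4 FPKM in siZBP1 samples (log2 fold change 0.18, adjusted p = 0.0410). Pfkp, the platelet form, was at 25.3 and 24.6 FPKM in siScr and at 18.8 and 20.3 FPKM in siZBP1 samples, a fall of 1.28-fold (log2 fold change -0.34, standard error 0.059, adjusted p = 0.020). Pfkm, the muscle form, was at 6.63 and 7.88 FPKM in siScr and at 9.44 and 9.42 FPKM in siZBP1 samples, and its log2 fold change of 0.34 did not pass the test (adjusted p = 0.0594). The summed level of the 3 genes was nearly the same in every sample, at 63.4 and 64.0 FPKM in siScr and 64.3 and 65.1 FPKM in siZBP1 samples. Within that sum the share of Pfkp was 39.9% and 38.4% in siScr and 29.2% and 31.2% in siZBP1 samples, and the share of Pfkl was 49.6% and 49.3% against 56.1% and 54.3%.

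**Figure D2:**
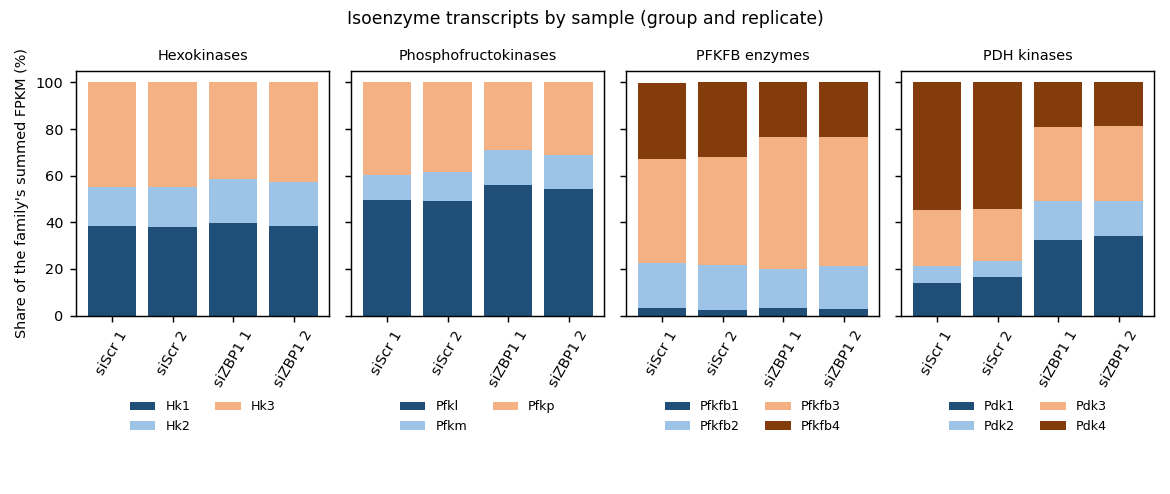
Share of each isoenzyme in the summed FPKM of its family (vertical axis, percent) in each of the 4 samples, for hexokinases, phosphofructokinases, PFKFB enzymes and PDH kinases. The share of Pdk4 is 54.6% and 54.5% in the siScr samples and 19.3% and 18.9% in the siZBP1 samples, and the shares of the hexokinases change least.

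PFKFB enzymes make and break the small sugar phosphate that switches phosphofructokinase on, and the gene of the form with the strongest synthetic activity rose. Pfkfb3 was at 16.2 and 17.4 FPKM in siScr and at 26.7 and 25.7 FPKM in siZBP1 samples, with no overlap and a rise of 1.56-fold (log2 fold change 0.61, standard error 0.058, adjusted p = 0.00585). In GRCm38, Pfkfb3 spans 11471433 to 11554077 of chromosome 2. Pfkfb4 was at 12 and 11.9 FPKM in siScr and at 11.1 and 11 FPKM in siZBP1 samples, and its log2 fold change of -0.10 did not pass the test (95% interval -0.25 to 0.05). Pfkfb3 thus held 44.5% and 46.5% of the summed PFKFB level in siScr and 56.4% and 55.1% in siZBP1 samples.

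In the lower part of the pathway, from the triose phosphates to pyruvate, 3 of the 5 genes with a row of their own were higher and 0 were lower, also at an unadjusted p under 0.05. Past the adjusted threshold, 13.5% of all genes tested were higher and 14.8% lower. The 3 that rose were abundant transcripts. Gapdh, which oxidises glyceraldehyde phosphate and is often taken as a reference gene, was at 542 and 563 FPKM in siScr and at 647 and 644 FPKM in siZBP1 samples (1.17-fold, adjusted p = 0.0241). Pgam1, the phosphoglycerate mutase of most tissues, was at 323 and 325 FPKM in siScr and at 433 and 409 FPKM in siZBP1 samples (1.30-fold, log2 fold change 0.38, standard error 0.046, adjusted p = 0.00916). Pkm, which encodes the pyruvate kinases of most tissues, was the most abundant gene of the list, at 842 and 918 FPKM in siScr and at 1174 and 1129 FPKM in siZBP1 samples. It rose by 30.8% (log2 fold change 0.39, standard error 0.061, adjusted p = 0.0156), and the table does not separate its splice forms.

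The other steps of the lower part differed less. Pgk1, the first enzyme of the pathway that yields ATP, was at 309 and 313 FPKM in siScr and at 332 and 326 FPKM in siZBP1 samples, and its log2 fold change of 0.08 did not pass the test (95% interval -0.02 to 0.18). The joint row of Eno1 and Eno1b was at 98.7 and 100 FPKM in siScr and at 116 and 105 FPKM in siZBP1 samples, with a log2 fold change of 0.15 (adjusted p = 0.134). Eno1b also had a separate row, at 0.886 and 0.452 FPKM in siScr and at 0.684 and 0.588 FPKM in siZBP1 samples. Eno2, the enolase best known from neurons, was at 3.20 and 4.26 FPKM and at 3.69 and 3.49 FPKM, with overlapping groups. Genes with processed copies can share reads with them, and the GENCODE M21 annotation names pseudogenes after Aldoa, Gapdh, Ldha, Pgam1 and Pgk1. How such reads were assigned is not given in the sources used here.

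**Figure D3:**
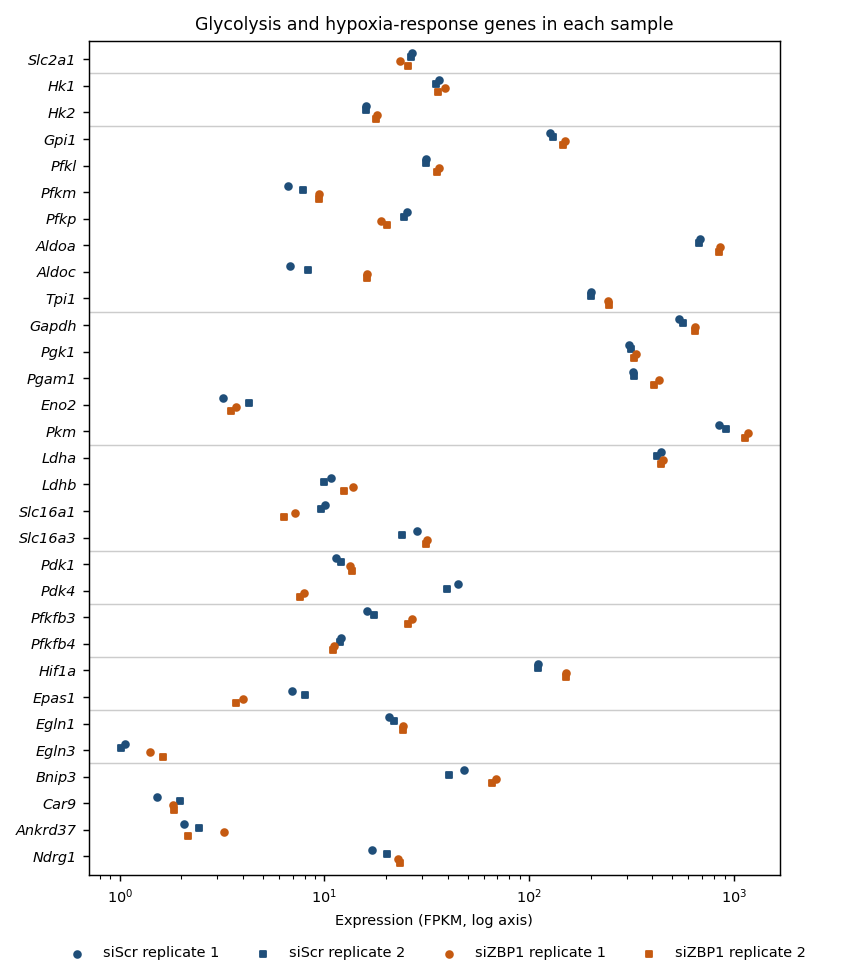
FPKM (horizontal, log axis) of the 31 genes with a row of their own in each of the 4 samples, with siScr in blue and siZBP1 in orange and a circle for replicate 1 and a square for replicate 2. The levels run from 1.01 FPKM for Egln3 to 1174 FPKM for Pkm, and the groups overlap for Hk1, Eno2, Car9 and Ankrd37. Both siZBP1 values lie above both siScr values for 67.7% of the genes, beside 34.7% of all genes tested. They lie below both for 19.4%, beside 33.7% of all genes tested.

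At the fate of pyruvate, the gene of the main lactate-forming enzyme did not pass the test, while those of a minor form and of 1 of 2 lactate carriers did. Ldha, which favours lactate formation, was at 439 and 422 FPKM in siScr and at 449 and 443 FPKM in siZBP1 samples, with a log2 fold change of 0.05 (95% interval -0.06 to 0.16, adjusted p = 0.415). Ldhb, which favours the reverse reaction, rose from 10.8 and 10.0 FPKM in siScr to 13.8 and 12.5 FPKM in siZBP1 samples (1.26-fold, adjusted p = 0.0476). Ldha kept 97.0% to 97.7% of the summed level of both genes in all samples.

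Slc16a1, which encodes the proton-coupled monocarboxylate carrier MCT1, was at 10.1 and 9.59 FPKM in siScr and at 7.18 and 6.32 FPKM in siZBP1 samples, a fall of 1.46-fold (log2 fold change -0.49, standard error 0.085, adjusted p = 0.0198). Slc16a3, which encodes the lactate exporter MCT4 of glycolytic cells, was at 28.3 and 24.0 FPKM in siScr and at 31.6 and 31.2 FPKM in siZBP1 samples. Both siZBP1 values of Slc16a3 were higher, but the log2 fold change of 0.26 did not pass the test (adjusted p = 0.0920).

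The largest change of the list was that of Pdk4, a PDH kinase that is known to be induced by fasting and by fatty acids. Pdk4 was at 45.0 and 39.8 FPKM in siScr and at 7.94 and 7.58 FPKM in siZBP1 samples, so that it was 5.46-fold lower and the groups were far apart. Its log2 fold change was -2.31 (standard error 0.077, adjusted p = 0.00152), and it was the one gene of the list that kept its call with any 1 sample left out, with an adjusted p of at most 0.0308. In GRCm38 the gene spans 5483351 to 5496309 of chromosome 6, read from the minus strand. Pdk1, the PDH kinase known as a HIF target, was at 11.4 and 12.1 FPKM in siScr and at 13.4 and 13.7 FPKM in siZBP1 samples, and its log2 fold change of 0.19 did not pass the test (adjusted p = 0.0785). The 4 PDH kinase genes together summed to 82.4 and 73.1 FPKM in siScr and to 41.1 and 40.2 FPKM in siZBP1 samples. Pdk4 was the most abundant of them in siScr samples, and Pdk1, with 32.6% and 34.0% of the sum, was the most abundant in siZBP1 samples, with Pdk3 close to it at 31.5% and 32%.

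Of the HIF α subunits, which are controlled mainly through the stability of the protein, 1 rose and 1 fell. Hif1a was at 111 and 110 FPKM in siScr and at 151 and 151 FPKM in siZBP1 samples, a rise of 36.7% with very close replicates (log2 fold change 0.45, standard error 0.035, adjusted p = 0.00436). Epas1, which encodes HIF2α, was at 6.91 and 8.06 FPKM in siScr and at 4.02 and 3.71 FPKM in siZBP1 samples, a fall of 1.94-fold (log2 fold change -0.80, standard error 0.102, adjusted p = 0.00999). In GRCm38, Hif1a spans 73901375 to 73947530 of chromosome 12, and Epas1 spans 86753700 to 86833410 of chromosome 17. Epas1 made up 5.88% and 6.80% of the summed FPKM of both subunits in siScr and 2.59% and 2.40% in siZBP1 samples.

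The prolyl hydroxylases, which mark HIF α subunits for degradation when oxygen is present, are represented on the list by Egln1 and Egln3, whose siZBP1 values were all above the siScr values without passing the test. Egln1, which encodes PHD2, was at 20.6 and 21.9 FPKM in siScr and at 24.1 and 24.2 FPKM in siZBP1 samples (log2 fold change 0.17, adjusted p = 0.0723). Egln3, which encodes PHD3 and is itself a HIF target, was low, at 1.06 and 1.01 FPKM in siScr and at 1.41 and 1.62 FPKM in siZBP1 samples (log2 fold change 0.30, adjusted p = 0.142).

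Among the other genes known to respond to hypoxia, 1 of 4 was higher and 0 were lower, beside 13.5% and 14.8% of all genes tested. Bnip3, whose product drives the removal of mitochondria, was at 48.2 and 40.7 FPKM in siScr and at 68.7 and 65.9 FPKM in siZBP1 samples (1.51-fold, log2 fold change 0.59, standard error 0.090, adjusted p = 0.0143). It lay just past the 1.5-fold limit and fell below it without siScr replicate 2 or without siZBP1 replicate 1, while Egln3 and Slc16a1, at 1.46-fold higher and lower, lay just short of it. Ndrg1, a stress-response gene, was at 17.1 and 20.3 FPKM in siScr and at 22.8 and 23.4 FPKM in siZBP1 samples, and its log2 fold change of 0.29 did not pass the test (adjusted p = 0.0740). Car9, a carbonic anhydrase used as a marker of hypoxic tissue, stayed low, at 1.52 and 1.96 FPKM in siScr and at 1.83 and 1.84 FPKM in siZBP1 samples, with overlapping groups (95% interval of the log2 fold change -0.30 to 0.40). Ankrd37 also overlapped, at 2.06 and 2.44 FPKM in siScr and at 3.25 and 2.15 FPKM in siZBP1 samples.

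The neighbouring pathways, followed through 106 further genes in 7 lists of which 86 were tested, held calls in both directions. Among them 23 (26.7%) were higher and 16 (18.6%) lower, beside 13.5% and 14.8% of all genes tested, and the median was 0.04 on the log2 scale. Of 27 further HIF targets tested, 12 were higher and 6 lower, with a median of 0.17. Adm, a vasodilator peptide gene, fell from 7.43 and 6.39 to 2.75 and 1.35 FPKM (adjusted p = 0.0194). Car12, a membrane-bound carbonic anhydrase, was at 0.591 and 0.473 FPKM in siScr and at 2.94 and 2.23 FPKM in siZBP1 samples. It passed the filter on mean FPKM only through the siZBP1 samples. Its call, counted among the 12, is thus no support for a rise. Of 13 regulators of the HIF pathway tested, 2 were higher and 2 lower. Arnt, the obligate partner of the α subunits, fell from 20.1 and 17.9 to 11.9 and 12.1 FPKM (log2 fold change -0.62, adjusted p = 0.00875). Egln2, the remaining prolyl hydroxylase, fell (log2 fold change -0.49, adjusted p = 0.0106), and Hif1an, an oxygen-dependent inhibitor of HIF activity, rose (log2 fold change 0.45, adjusted p = 0.0204).

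On the carbon side, the counts of each list are to be read beside all genes tested, of which 13.5% were higher and 14.8% lower. Whether any of these short lists departed from those shares was not tested. The further glycolytic enzymes had 8 tested genes with 1 higher and 2 lower. Bpgm, which diverts a glycolytic intermediate to bisphosphoglycerate, rose from 6.87 and 9.21 FPKM in siScr to 20.1 and 19.7 FPKM in siZBP1 samples (2.47-fold, adjusted p = 0.00779), while Pgam2 and the ADP-dependent glucokinase Adpgk fell (log2 fold change -0.70 and -0.58). Of 12 genes of PDH and mitochondrial pyruvate entry, 4 were lower and 0 higher, also at an unadjusted p under 0.05. They included Pdha1, the catalytic subunit of PDH, which fell from 80.6 and 72.9 to 49.9 and 51.2 FPKM (log2 fold change -0.59, adjusted p = 0.00671), Pdk3 (log2 fold change -0.45) and Dld (log2 fold change -0.28). Of 8 genes of the pentose phosphate pathway, which makes NADPH, 3 were higher, namely G6pdx (log2 fold change 0.38), Rpe (0.25) and Pgd (0.21), and 0 were lower, also at an unadjusted p under 0.05. Of 10 genes of glycogen and gluconeogenesis, 2 were higher and 2 lower, with Gys1, the glycogen synthase of most tissues, falling from 17.9 and 16.2 to 8.04 and 8.75 FPKM (adjusted p = 0.00470) and Pck2 falling 1.65-fold. Of 8 further sugar and lactate transport genes, 3 were higher and 0 lower (4 and 1 at an unadjusted p under 0.05), with the largest changes in Emb (log2 fold change 0.50) and Slc2a8 (0.44), which rose, and in Slc2a6 (0.32), which did not pass the test.

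**Figure D4:**
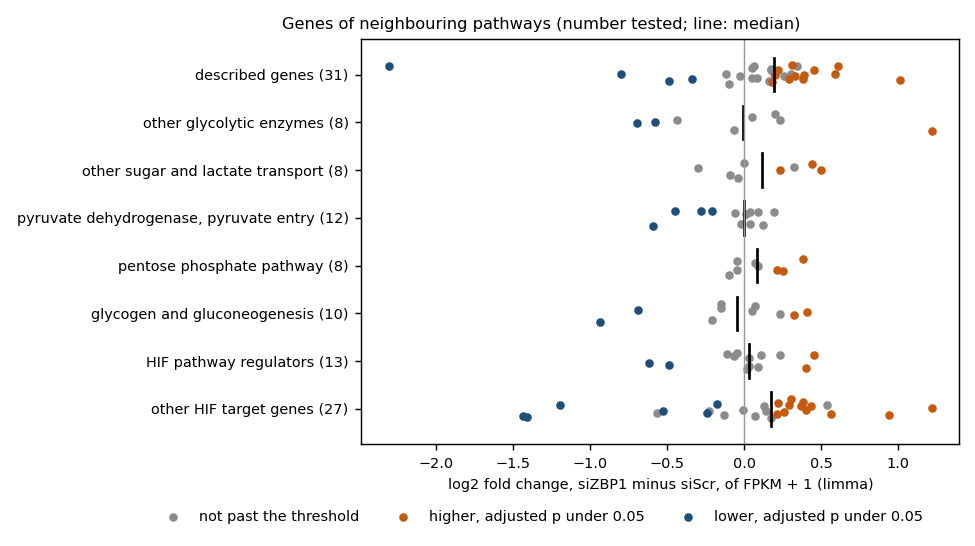
Log2 fold change of FPKM + 1 in siZBP1 minus siScr cells (horizontal axis) for the 31 described genes and for the tested genes of the 7 further lists, 1 point per gene, coloured by call at an adjusted p under 0.05, with a black line at each median. The medians are 0.19 for the described genes and 0.17 for the other HIF targets. The lowest point is Pdk4 at -2.31 and the highest are Bpgm and Car12 at 1.22, of which Car12 passed the filter only through its siZBP1 values.

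Markers of division did not set the groups apart, with 0 of 15 genes past the threshold in either direction by limma, at an adjusted or an unadjusted p under 0.05. Their summed level was 303 and 449 FPKM in siScr and 373 and 389 FPKM in siZBP1 samples, so that the siScr samples lay on either side of the siZBP1 samples.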

How the data were processed

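RNA from mBMSCs (2 siScr and 2 siZBP1 samples) was sequenced from TruSeq libraries. The deposited values are FPKM per gene, which the authors made by mapping reads to mm10 with TopHat. The study's methods name HTSeq for FPKM and the submitters' processing notes name Cufflinks. Its columns of group means equalled the replicate means and were not used. FPKM per sample summed to 477974 to 492166, and read numbers are not given in the sources used here, so that counting error is unknown.

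Values were tested as log2(FPKM + 1), a scale that understates changes of low genes, with limma 3.58.1 in R 4.3.3, with a variance trend and Benjamini-Hochberg adjustment over the 11959 genes with a mean of at least 1 FPKM, two-sided, at a threshold of 0.05. The 1.5-fold limit is that of the study and used ratios of mean FPKM. The genes and lists were chosen with earlier results of these data known. From each further list the 3 tested genes with the largest absolute log2 fold change could be named, and 1 of these is not reported here. Hk3, the remaining isoenzymes and the marker genes at 0 were named after their values were seen. Older symbols were matched where listed. Replicate numbers were not used to pair samples in the main fit, since no source used here says whether the samples were paired. The difference between replicates 1 and 2 correlated at -0.063 between the groups, across genes, which cannot show whether they were. Alternatives changed the pseudocount, filter, scaling, variance model, replicate block or samples. Seed matches of the siRNA were not examined.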

Additional observations from a re-analysis of the deposited data

How the results depend on the processing

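With all 4 samples, 12 of the 16 genes called kept their call in every alternative. The other 4 were close to the threshold: Gpi1 and Pfkl lost theirs without the variance trend, Gapdh and Ldhb also without the filter on low values, and Pfkl and Gapdh with a replicate block. Pfkm, Ndrg1, Hk2 and Egln3 passed under 1 or more alternatives. With the replicate number as a replicate block, 11 genes were higher and 4 lower, with Pfkl (adjusted p = 0.0731) and Gapdh (0.0507) lost and Ndrg1 gained, and over all genes 1465 were higher and 1654 lower. Among the 86 neighbouring genes tested, 15 instead of 23 were higher without the filter and 14 without the variance trend. The change of Eno2 reversed to 0.04 with quantile normalization.

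Leaving out 1 sample mattered most, above all a siZBP1 sample. The genes called ranged from 0 to 12 higher and from 1 to 2 lower, the neighbouring genes from 0 to 15 higher and from 2 to 10 lower, and all genes from 22 to 1248 higher and from 48 to 1467 lower. Each of these fits leaves 1 sample in a group, which is assumed to vary like the other group, and has fewer samples to estimate the spread. Signs reversed for Eno2 (-0.20 to 0.13), Car9 (-0.06 to 0.17) and Ankrd37 (-0.05 to 0.39). Counts past 1.5-fold, recomputed as an alternative chosen after seeing the data, ranged from 2 to 4 higher and from 2 to 3 lower. TPM, median-of-ratios and quantile scaling moved the median of all genes by at most 0.028 on the log2 scale.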
